A study of Homo sapiens with 6 samples.

Results

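The genes described here make ribosomes. They encode RNA polymerase I with its initiation factors and the nucleolar factors that modify, cut and assemble ribosomal RNA. They were chosen by symbol from a list of 44 genes, of which 43 had a probe set annotated to that gene alone, out of 18132 genes on the array. GNL3 is not analysed here. Each gene was represented by its brightest probe set, taken as the mean of the 6 arrays. The values come from the human papillary thyroid carcinoma cell line BCPAP and were measured on Affymetrix PrimeView arrays. In the shCSF2 group (n = 3 arrays) the cells carried a lentiviral short hairpin RNA against CSF2, which encodes the cytokine GM-CSF. In the shCtrl group (n = 3 arrays) they carried a non-targeting hairpin. All cells were taken through puromycin selection, which began 48 hours after transduction and lasted 7 days. The labels call the replicates independent biological ones, and they give neither the hairpin sequences nor the number of hairpins or clones.

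Ribosome production starts in the nucleolus, where RNA polymerase I transcribes the long precursor of the 18S, 5.8S and 28S ribosomal RNAs. The factors UBTF, SL1 and RRN3 bring the polymerase to its promoter. Small nucleolar ribonucleoproteins (snoRNPs) then modify the precursor, those of the box C/D class by ribose methylation and those of the box H/ACA class by pseudouridylation. The small subunit processome folds and cuts the part that becomes the 40S subunit, and another set of factors assembles the 60S subunit. Ribosome production consumes much of the transcription of a growing cell, and MYC is a known activator of many of these genes.

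The median log2 value of an array was 5.77 to 5.79, and arrays correlated across probe sets with r of 0.998 within groups and 0.994 between groups. The probe sets are not independent replicates, and precision is limited by the number of arrays. The annotation pairs no probe set with CSF2, so its level was not analysed here. Of 8 measured thyroid markers, PAX8 (8.07 in shCSF2 and 8.11 in shCtrl cells) and NKX2-1 (9.37 in shCSF2 and 9.78 in shCtrl cells) lay above the array median (mean log2 values). FOXE1 did so too (6.15 in shCSF2 and 6.03 in shCtrl cells). TG (4.58 in shCSF2 and 4.61 in shCtrl cells) and TSHR (3.88 in shCSF2 and 3.86 in shCtrl cells) lay below it. So did SLC5A5 (4.57 in shCSF2 and 4.68 in shCtrl cells), DIO1 (2.88 in shCSF2 and 2.99 in shCtrl cells) and DUOX2 (3.23 in shCSF2 and 3.34 in shCtrl cells). NKX2-1 was the only 1 of the 8 that passed the test, and it fell. Of 6 epithelial markers KRT8 was the only 1 that passed, and it fell (10.17 in shCSF2 and 10.42 in shCtrl cells). KRT7 (11.86 in shCSF2 and 11.91 in shCtrl cells) and KRT18 (11.82 in shCSF2 and 11.74 in shCtrl cells) also lay above the array median. EPCAM (5.64 in shCSF2 and 5.73 in shCtrl cells), KRT19 (4.13 in shCSF2 and 4.04 in shCtrl cells) and CDH1 (3.62 in shCSF2 and 3.52 in shCtrl cells) lay below it. None of the 12 measured leukocyte, endothelial and fibroblast markers passed the test between groups. The dimmest of them, the leukocyte marker PTPRC, was at 2.33 in shCSF2 and 2.35 in shCtrl cells. CD68 (6.89 in shCSF2 and 7.00 in shCtrl cells) and CDH5 (6.52 in shCSF2 and 6.59 in shCtrl cells) lay above the array median. So did PECAM1 (6.22 in shCSF2 and 6.26 in shCtrl cells) and KDR (6.05 in shCSF2 and 6.06 in shCtrl cells), and the others lay below it. The array median is taken over all probe sets. FOXE1, PECAM1 and KDR lay below the median over genes of 6.28, which takes each gene by its brightest probe set. The 3′ minus 5′ difference of the GAPDH control probe sets, a sign of RNA integrity, was -0.0094 ± 0.011 in shCSF2 and -0.034 ± 0.013 in shCtrl arrays on the log2 scale (SD, n = 3 each, exact two-sided permutation p = 0.1, the smallest that 3 arrays against 3 can give). The same difference for the actin control probe sets was 0.612 ± 0.045 in shCSF2 and 0.590 ± 0.046 in shCtrl arrays (SD, n = 3 each). These values overlapped between groups (exact two-sided permutation p = 0.6). The part of RNA integrity in the results was not tested.

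Most genes of ribosome biogenesis were higher in shCSF2 cells, by small amounts. Of the 43 genes, 29 rose and 3 fell at a limma adjusted p of 0.05, and 11 did not pass. Over all 18132 genes tested, 16.7% were called higher and 16.0% lower. The 29 make up 67.4% of the measured genes and the 3 make up 6.98%. The median log2 fold change was 0.29, against -0.03 over all genes tested. The change of RRP12, the largest, was 1.57-fold (log2 0.65 ± 0.03, SE), so no gene reached 2-fold. The 3 shCSF2 arrays all lay above the 3 shCtrl arrays for 32 of the 43 genes and all below for 3, where 22.1% and 24.6% of all genes did so. All but UTP14A had a mean log2 value at or above the median over genes, and among genes at or above that median 34.2% were called higher and 29.8% lower. In that fit 32 of 42 genes of the module were higher and 3 lower. In these bulk samples a change in the share of cells in a given state and a change in RNA per cell cannot be told apart.

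**Figure D1:**
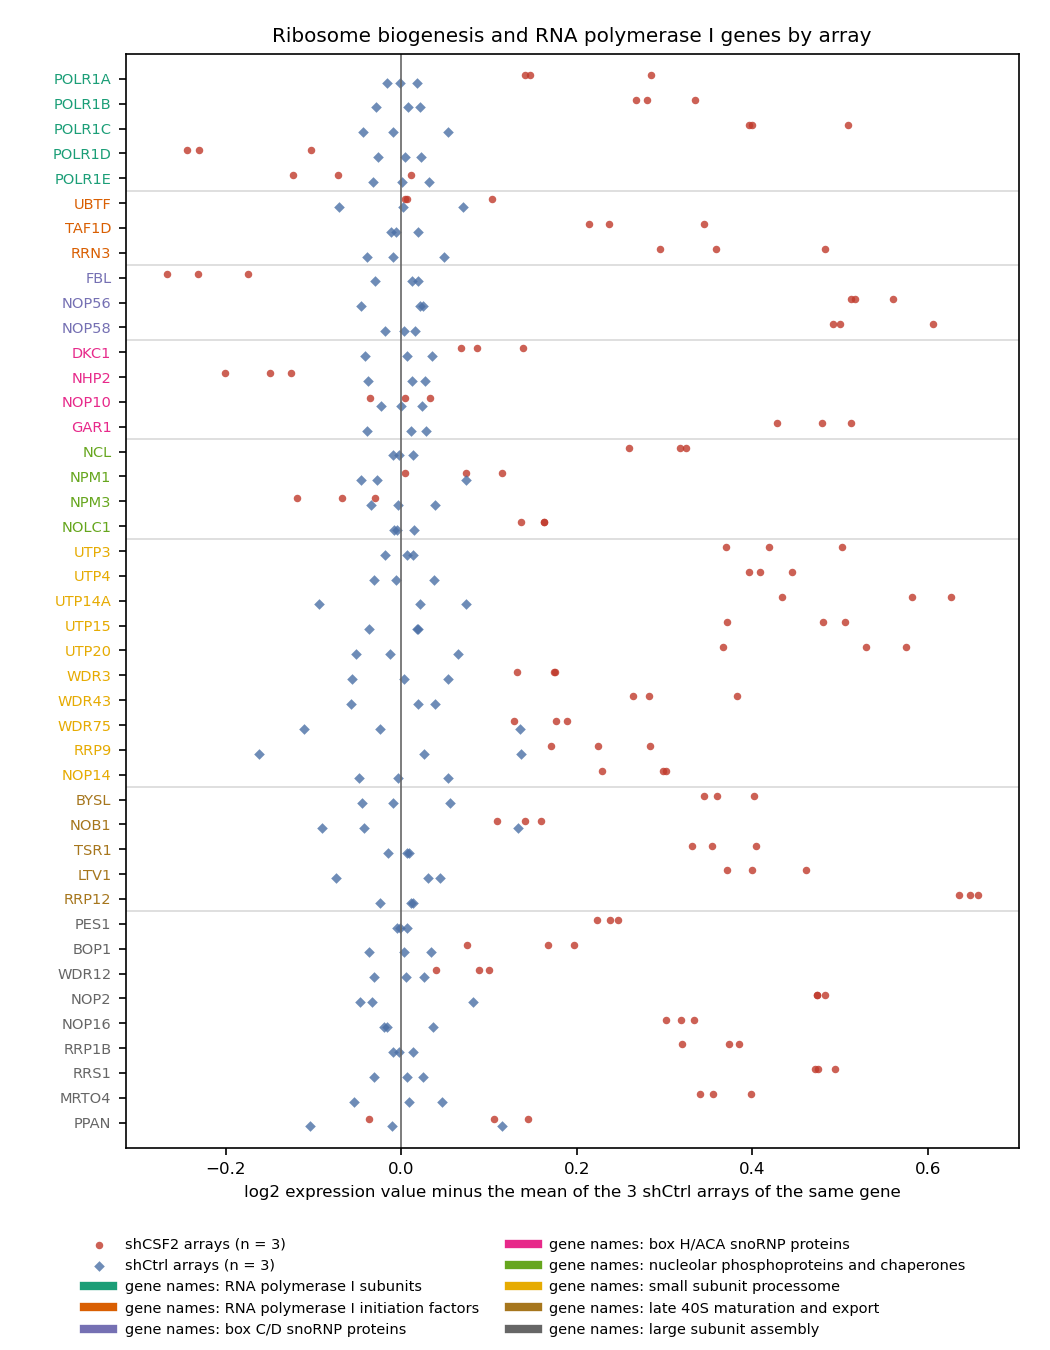
Log2 expression value of each gene on each array, minus the mean of the 3 shCtrl arrays of that gene, with circles for the shCSF2 arrays and diamonds for the shCtrl arrays. Rows are grouped by role and gene names are coloured by it. For 32 genes every circle lies right of every diamond, and for POLR1D, FBL and NHP2 every circle lies left.

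The subunits of RNA polymerase I moved in both directions, with 3 of 5 higher and 1 lower. Over all genes tested, the shares were 16.7% and 16.0%. POLR1C, a subunit shared with RNA polymerase III, had log2 values of 7.99, 8.10 and 7.98 in shCSF2 cells, against 7.58, 7.54 and 7.64 in shCtrl cells. Its groups did not overlap and it rose 1.35-fold (log2 fold change 0.44 ± 0.05, limma adjusted p = 0.00059). Of its 3 probe sets 2 passed, and the most variable of them did not (0.43, limma adjusted p = 0.053). The catalytic subunit genes POLR1A and POLR1B also rose. POLR1B had 8.91, 8.98 and 8.93 in shCSF2 cells, against 8.65, 8.62 and 8.67 in shCtrl cells, and its 6 probe sets all passed in that direction. POLR1A rose by 0.19 ± 0.05, a call that did not hold in the fits without shCtrl replicate 1 or shCtrl replicate 2 (0.19 and 0.18). The other probe set of POLR1A gave 0.42, and both averaged gave 0.30 (limma adjusted p = 0.00057). POLR1D, the partner of POLR1C in the assembly of both polymerases, fell by the probe set used, with 8.52, 8.66 and 8.53 in shCSF2 cells, against 8.74, 8.77 and 8.78 in shCtrl cells (log2 fold change -0.19 ± 0.05, limma adjusted p = 0.019). Its other probe sets gave -0.02 and 0.10 and did not pass, and with all 3 averaged its value was -0.04. The call of POLR1D held in 2 of 6 leave-one-out fits, in each of which 1 array was dropped. POLR1E, the subunit homologous to yeast A49, did not pass (-0.06 ± 0.05). Of its 3 probe sets 1 was called lower (-0.12, limma adjusted p = 0.047), and the gene did not pass with all 3 averaged (-0.07).

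Among the initiation factors RRN3 and TAF1D rose, and UBTF did not pass by the probe set used. RRN3, which links the polymerase to the promoter complex, had log2 values of 7.17, 7.35 and 7.23 in shCSF2 cells, against 6.92, 6.83 and 6.86 in shCtrl cells. That is a 1.30-fold rise (0.38 ± 0.06, limma adjusted p = 0.0022), and all 3 of its probe sets passed. TAF1D, a subunit of the promoter selectivity factor SL1, had 9.17, 9.31 and 9.20 in shCSF2 cells, against 8.95, 8.95 and 8.98 in shCtrl cells (0.27 ± 0.04). Both genes had separate groups. UBTF, which bends and opens the ribosomal DNA, had 7.13, 7.03 and 7.03 in shCSF2 cells, against 7.03, 6.96 and 7.10 in shCtrl cells, and these overlapped (0.04 ± 0.05). Of its 4 probe sets 1 was higher (0.32), and the gene passed when all 4 were averaged (0.12, limma adjusted p = 0.030).

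The core proteins of the snoRNPs split within each class. In the box C/D class NOP58 and NOP56, which form the scaffold, were among the genes that rose most, while FBL, the methyltransferase fibrillarin, fell. NOP58 had log2 values of 11.11, 11.22 and 11.11 in shCSF2 cells, against 10.60, 10.63 and 10.62 in shCtrl cells (1.45-fold, 0.53 ± 0.04, limma adjusted p = 0.00018). NOP56 had 11.11, 11.11 and 11.15 in shCSF2 cells, against 10.62, 10.55 and 10.62 in shCtrl cells (1.44-fold, 0.53 ± 0.04, limma adjusted p = 0.00012). Every probe set of both genes passed. FBL had 11.09, 11.18 and 11.13 in shCSF2 cells, against 11.33, 11.37 and 11.38 in shCtrl cells, a 1.17-fold fall (-0.22 ± 0.04, limma adjusted p = 0.0044). FBL was measured by 1 probe set and held in all 6 leave-one-out fits. A further box C/D core gene, SNU13, was listed with the other small subunit factors. It did not pass (-0.05 ± 0.03, limma adjusted p = 0.30).

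In the box H/ACA class GAR1 rose, NHP2 fell, and DKC1 and NOP10 did not pass. GAR1, which helps release the modified RNA, had log2 values of 9.29, 9.32 and 9.24 in shCSF2 cells, against 8.77, 8.84 and 8.82 in shCtrl cells (1.39-fold, 0.47 ± 0.04, limma adjusted p = 0.00021). NHP2, an RNA-binding core protein, had 11.34, 11.42 and 11.39 in shCSF2 cells, against 11.51, 11.56 and 11.57 in shCtrl cells (-0.16 ± 0.04, limma adjusted p = 0.018). The groups of NHP2 did not overlap and its 3 probe sets all passed, but the call held in only 3 of 6 leave-one-out fits. DKC1, the pseudouridine synthase dyskerin, was at 10.35, 10.30 and 10.28 in shCSF2 cells, against 10.22, 10.17 and 10.25 in shCtrl cells, which did not overlap but did not pass (0.10 ± 0.04, limma adjusted p = 0.099). Its other probe set was called higher (0.15), and the gene passed with both averaged (0.13, limma adjusted p = 0.024). NOP10, a small protein that holds dyskerin, averaged 10.98 ± 0.03 in shCSF2 cells and 10.98 ± 0.02 in shCtrl cells (SD, n = 3 each), with a difference of 0.00 ± 0.04 (SE).

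**Figure D2:**
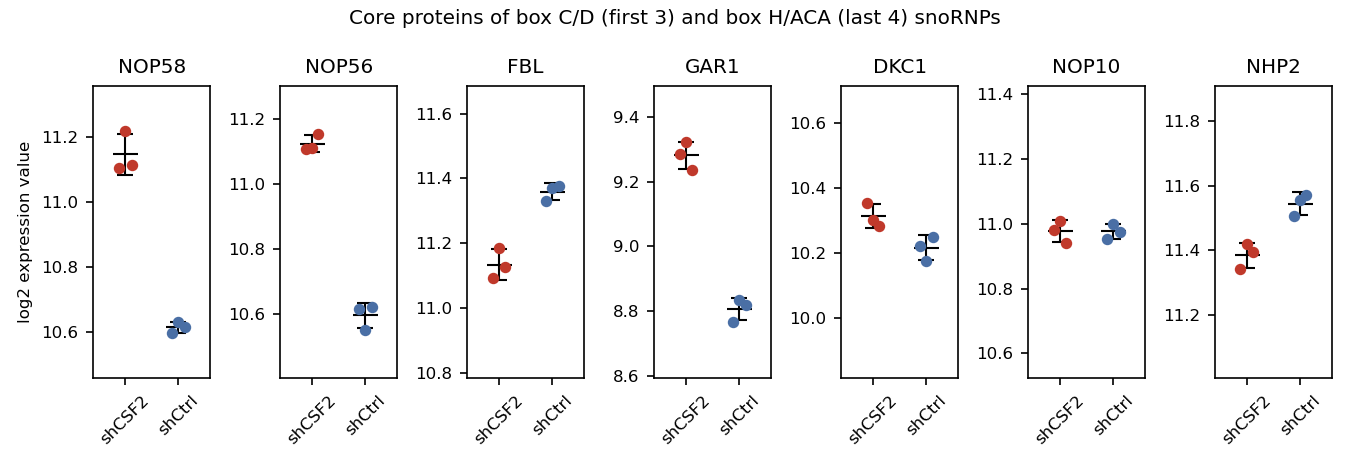
Log2 expression values of core genes of box C/D (NOP58, NOP56 and FBL) and box H/ACA (GAR1, DKC1, NOP10 and NHP2) snoRNPs. Each of 3 arrays per group is a dot, and bars show the mean and SD. Every panel spans the same number of log2 units around its own centre. NOP58, NOP56 and GAR1 were higher in shCSF2 cells (0.53, 0.53 and 0.47), and FBL and NHP2 lower (-0.22 and -0.16).

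Of the abundant nucleolar proteins, NCL and NOLC1 rose, while NPM1 and NPM3 did not pass. NCL, nucleolin, had log2 values of 11.94, 11.93 and 11.87 in shCSF2 cells, against 11.61, 11.63 and 11.60 in shCtrl cells (1.23-fold, 0.30 ± 0.03, limma adjusted p = 0.00081). NOLC1, a snoRNP chaperone, rose by 0.15 ± 0.03 with 3 of 3 probe sets passing. NPM1, nucleophosmin, had 12.89, 12.78 and 12.85 in shCSF2 cells, against 12.85, 12.75 and 12.73 in shCtrl cells, which overlapped (0.06 ± 0.05). Of the 6 probe sets of NPM1, 5 gave 0.06 to 0.08 and did not pass. The remaining 1 was higher, with 11.62, 11.64 and 11.65 in shCSF2 cells, against 11.25, 11.25 and 11.27 in shCtrl cells (0.38). The gene passed with all 6 averaged (0.12, limma adjusted p = 0.020), so its call depends on the probe set, and the cause of the difference between probe sets was not tested. NPM3, a nucleoplasmin family member, was at -0.07 ± 0.04.

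Of the 10 genes of the small subunit processome, 8 rose and none fell, where 16.7% and 16.0% of all genes tested did so. UTP14A, which works with the helicase that removes U3 snoRNA, was the dimmest, with log2 values of 5.42, 5.61 and 5.57 in shCSF2 cells, against 5.06, 5.00 and 4.89 in shCtrl cells (1.46-fold, 0.55 ± 0.07, limma adjusted p = 0.00094). UTP20, a long scaffold protein, had 6.59, 6.80 and 6.75 in shCSF2 cells, against 6.21, 6.17 and 6.29 in shCtrl cells (1.40-fold, 0.49 ± 0.06). These genes had no overlap between groups and were measured by 1 probe set each.

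UTP15 and UTP4, subunits of the complex that binds the start of the precursor, rose by 0.45 ± 0.05 and 0.42 ± 0.04. UTP15 rose by 0.70 with its most variable probe set. WDR43, of the same complex, rose by 0.31 ± 0.05. UTP3, also called SAS10, rose by 0.43 ± 0.04 with both of its probe sets passing. NOP14 rose by 0.28 ± 0.04. WDR3 rose by 0.16 ± 0.04, but held in only 2 of 6 leave-one-out fits. RRP9, a protein of the U3 snoRNP, and WDR75 did not pass, at 0.23 ± 0.08 and 0.16 ± 0.06. The shCtrl arrays of both spread widely. RRP9 was at 6.99, 6.93 and 6.87 in shCSF2 cells, against 6.84, 6.54 and 6.73 in shCtrl cells.

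Of the 5 factors of late 40S maturation and export, 4 rose and none fell, beside 16.7% and 16.0% of all genes tested. RRP12, which acts in the nuclear export of both subunits, had log2 values of 9.63, 9.62 and 9.64 in shCSF2 cells, against 8.99, 8.96 and 8.99 in shCtrl cells. It rose most of the 43 genes (1.57-fold, 0.65 ± 0.03, limma adjusted p = 3.94e-05), and its 3 probe sets gave 0.57 to 0.67. The assembly factors LTV1 (0.41 ± 0.05) and TSR1 (0.36 ± 0.04) rose as well, TSR1 by 1 of its 2 probe sets. BYSL, bystin, had 8.94, 8.998 and 8.96 in shCSF2 cells, against 8.59, 8.55 and 8.65 in shCtrl cells (0.37 ± 0.04) by the probe set used. Its other probe sets were far dimmer, at log2 values of 2.61 to 3.14, and gave -0.24 and -0.21 without passing. With all 3 averaged BYSL was at -0.03. NOB1, the endonuclease that makes the mature end of 18S rRNA, did not pass (0.14 ± 0.06).

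Of the 9 measured genes of 60S assembly, 7 rose and none fell, beside 16.7% and 16.0% of all genes tested. RRS1, which in yeast helps bring the 5S particle into the subunit, had log2 values of 9.09, 9.09 and 9.11 in shCSF2 cells, against 8.59, 8.64 and 8.62 in shCtrl cells (1.40-fold, 0.48 ± 0.03, limma adjusted p = 0.00012). NOP2, an rRNA methyltransferase, had 7.95, 7.95 and 7.96 in shCSF2 cells, against 7.44, 7.43 and 7.56 in shCtrl cells (1.39-fold, 0.48 ± 0.04, limma adjusted p = 0.00032). Neither gene had any overlap between groups. MRTO4, related to the ribosomal stalk protein, rose by 0.36 ± 0.04, RRP1B by 0.36 ± 0.03 and the assembly factor NOP16 by 0.32 ± 0.03. For RRP1B 1 of 2 probe sets passed, and for NOP16 2 of 3.

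PES1, BOP1 and WDR12 form a complex needed for the 60S precursor, and PES1 had the largest change of the 3. PES1 had 8.31, 8.32 and 8.30 in shCSF2 cells, against 8.08, 8.07 and 8.08 in shCtrl cells (0.24 ± 0.03, limma adjusted p = 0.0014). BOP1 rose by 0.15 ± 0.04 (limma adjusted p = 0.043), but held in only 1 of 6 leave-one-out fits. WDR12 was at 0.08 ± 0.04 and did not pass, although its groups did not overlap. None of its 3 probe sets passed alone, but the gene passed with all 3 averaged (0.11, limma adjusted p = 0.041). PPAN, another 60S factor, was at 7.96, 8.14 and 8.10 in shCSF2 cells, against 7.89, 7.99 and 8.11 in shCtrl cells, which overlapped (0.07 ± 0.07).

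Where a gene had several probe sets, they mostly ran the same way. The 43 genes had 100 probe sets, of which 63 were called higher and 6 lower in a fit over all 49293 probe sets, where 15.3% were called higher and 13.8% lower. Of the 22 genes called higher that had several probe sets, 16 had every probe set called higher. No gene had probe sets called in both directions. When the probe sets of each gene were averaged, 32 of the 43 genes were higher and 2 lower, where 17.0% and 16.5% of all genes were.

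**Figure D3:**
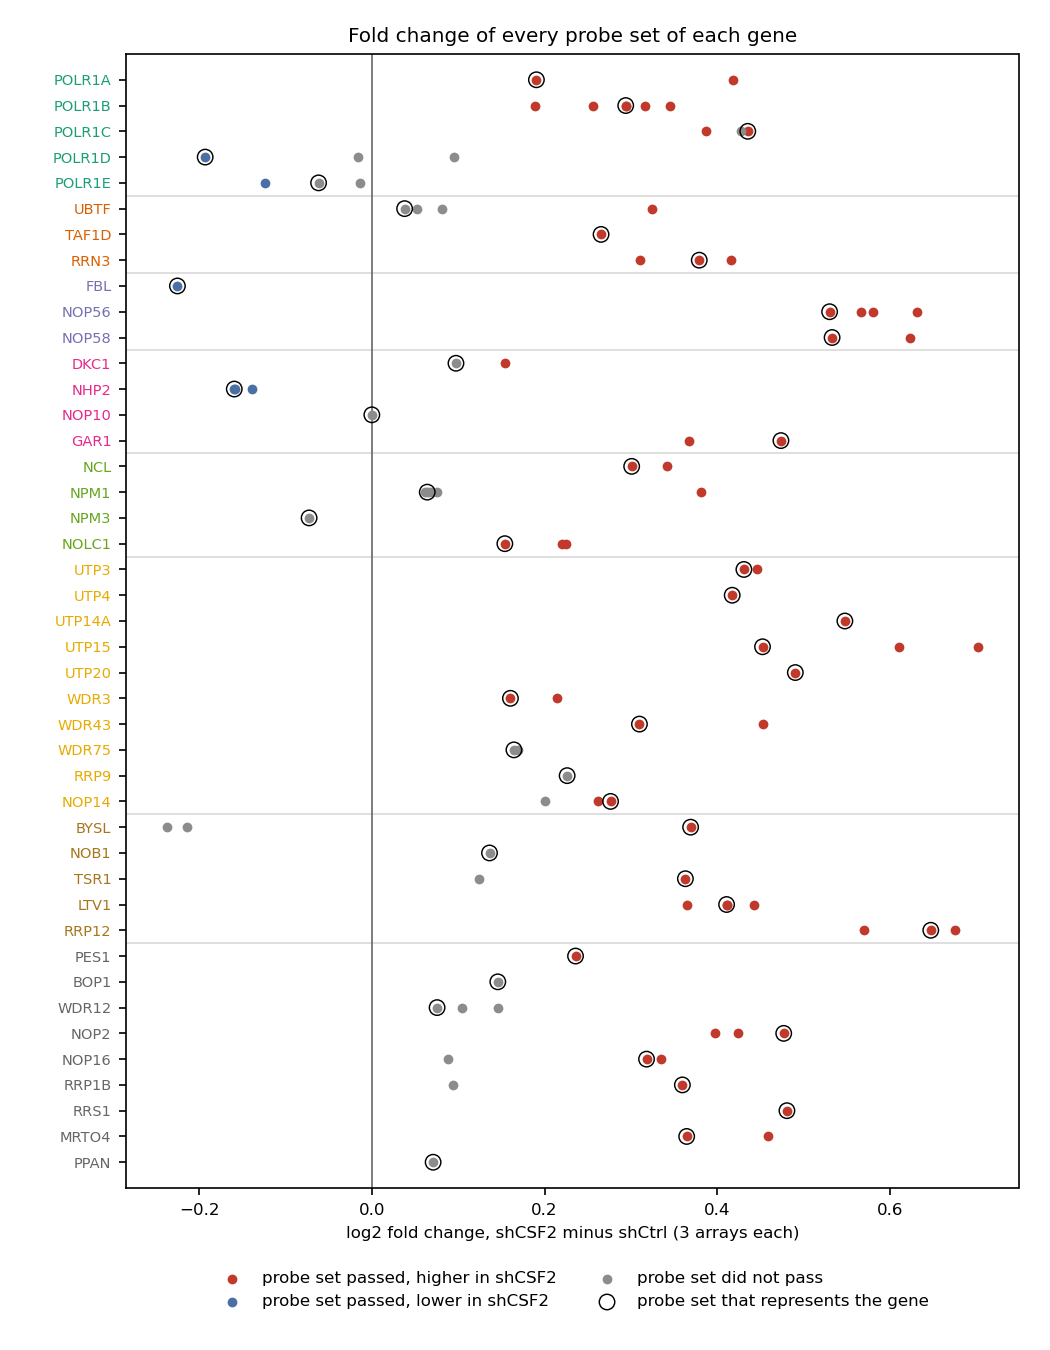
Log2 fold change (shCSF2 minus shCtrl, 3 arrays each) of each of the 100 probe sets, by gene. Colours show the call of the probe set in the fit over all probe sets, and open circles mark the probe set that represents the gene. BYSL and NPM1 are among the genes whose probe sets lie apart.

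The rest of the pathway was read from a list of 117 further genes, of which 114 were measured. Of these, 64 (56.1%) rose and 5 (4.39%) fell, where 16.7% and 16.0% of all genes tested did so. Among genes at or above the median over genes, 73 of 109 rose and 12 fell, where 34.2% and 29.8% of such genes did so. The median log2 fold change of the 114 genes was 0.17, while all genes tested had a median of -0.03. Of 37 other small subunit factors, 24 (64.9%) rose and none fell. IMP3, a U3 snoRNP protein, rose by 0.73 ± 0.03, PNO1, the partner of NOB1, by 0.53 ± 0.05 and NAT10, the rRNA acetyltransferase, by 0.51 ± 0.04. Of 42 other large subunit factors, 22 (52.4%) rose and 2 (4.76%) fell. ZNF622, a cytoplasmic 60S factor, had log2 values of 10.35, 10.41 and 10.36 in shCSF2 cells, against 9.36, 9.36 and 9.42 in shCtrl cells (0.99 ± 0.04, limma adjusted p = 1.83e-05). TEX10 rose by 0.70 ± 0.04 and NIP7 by 0.61 ± 0.03. The ATPase gene AFG2A (-0.31 ± 0.06) and LAS1L, the nuclease that cuts the internal spacer (-0.15 ± 0.04), fell.

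Of 22 genes of the exosome and of the rRNA cleavage enzymes, 15 (68.2%) rose and 2 (9.09%) fell. The exosome ring genes EXOSC6 (0.79 ± 0.04) and EXOSC9 (0.36 ± 0.05) and RPP14 (0.40 ± 0.04), of ribonuclease P, rose most among those named, while RPP40 and POP5, also of ribonuclease P and MRP, fell (-0.15 ± 0.04 and -0.14 ± 0.04). Of 13 other subunits and factors of RNA polymerase I, 3 rose and 1 fell. These shares of 23.1% higher and 7.69% lower compare with 16.7% higher and 16.0% lower over all genes tested. All but TAF1C lay at or above the median over genes. In the fit of such genes, 34.2% were called higher and 29.8% lower. TAF1B (0.25 ± 0.08), POLR1F (0.23 ± 0.04) and POLR1G (0.18 ± 0.04) rose, and POLR2L, shared by the nuclear RNA polymerases, fell (-0.22 ± 0.04). The median of these 13 was -0.02, and whether it differs from the medians of the assembly factors was not tested.

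**Figure D4:**
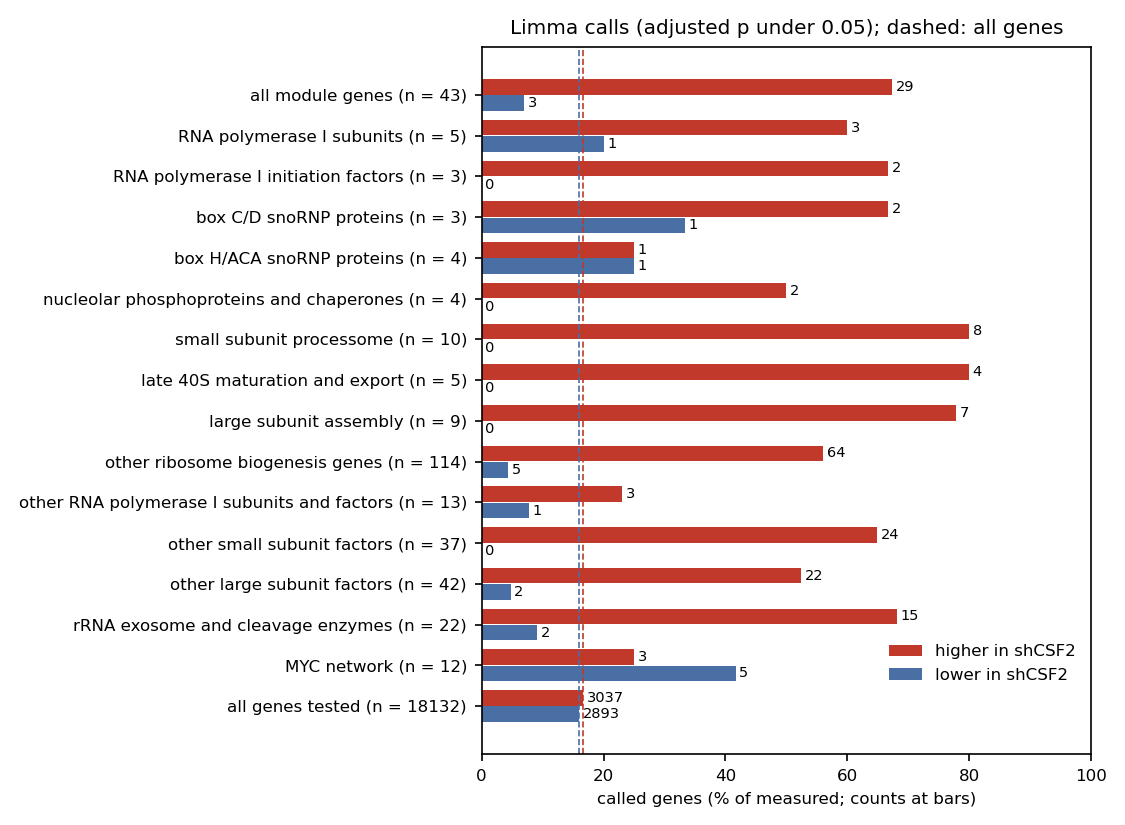
Percentage of measured genes called higher (red) and lower (blue) in shCSF2 cells by limma, with counts at the bars, for the module, its roles, the further lists and all genes tested. Dashed lines mark 16.7% and 16.0%, the shares over all genes. Small subunit processome and late 40S genes reached 80% higher, and 0 of them fell.

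MYC itself had log2 values of 9.42, 9.43 and 9.41 in shCSF2 cells, against 8.71, 8.68 and 8.69 in shCtrl cells. Of the 12 genes of its network, MYC (0.73 ± 0.03), its partner MAX (0.22 ± 0.04) and MGA (0.36 ± 0.04) rose. Another 5 fell, among them MXI1 (-0.34 ± 0.03), MXD4 (-0.30 ± 0.05) and MXD1 (-0.29 ± 0.06). The other 4 did not pass. The 3 that rose are 25% of the network and the 5 that fell 41.7%, where 16.7% and 16.0% of all genes tested did so. Whether MYC has a part in the changes of the ribosome biogenesis genes was not tested.

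MYC and MAX bind the E-box CACGTG, which reads the same on both strands, so the 250 bases before each gene's start were searched for these letters. RefSeq promoters on GRCh38.p14 were at hand for 36 of the 43 genes. The letters were found in 4 of the 36 (11.1%), in 7.83% of the 14425 genes tested that had a promoter, and in 6.34% of all 35116 promoters of that length. They were present in 3 of 23 genes called higher, 0 of 3 called lower and 1 of 10 not called. The promoters that hold them are shown because they belong to 3 processome genes that rose and to NOP10, which averaged 10.98 in both groups. The capitals mark CACGTG, and each run is 5′ to 3′ and ends at the base before the start. UTP14A lies at chrX:129905914-129906163, plus strand. UTP20 lies at chr12:101279855-101280104, plus strand. UTP4 lies at chr16:69132399-69132648, plus strand. NOP10 lies at chr15:34343137-34343386, minus strand.
UTP14A: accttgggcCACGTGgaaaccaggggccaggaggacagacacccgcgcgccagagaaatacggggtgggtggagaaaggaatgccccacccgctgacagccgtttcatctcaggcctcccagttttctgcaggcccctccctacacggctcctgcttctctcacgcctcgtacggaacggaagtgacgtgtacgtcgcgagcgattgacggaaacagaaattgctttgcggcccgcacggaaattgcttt
UTP20: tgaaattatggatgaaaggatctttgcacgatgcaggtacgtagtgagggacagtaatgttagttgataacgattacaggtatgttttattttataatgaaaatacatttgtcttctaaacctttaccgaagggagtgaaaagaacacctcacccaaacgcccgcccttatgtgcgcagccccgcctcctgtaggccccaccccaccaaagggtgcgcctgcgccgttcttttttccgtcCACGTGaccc
UTP4: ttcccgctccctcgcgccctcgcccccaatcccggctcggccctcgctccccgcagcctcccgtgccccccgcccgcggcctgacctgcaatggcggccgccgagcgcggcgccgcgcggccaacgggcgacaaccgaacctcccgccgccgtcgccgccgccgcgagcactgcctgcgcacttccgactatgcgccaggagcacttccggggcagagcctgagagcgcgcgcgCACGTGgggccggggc
NOP10: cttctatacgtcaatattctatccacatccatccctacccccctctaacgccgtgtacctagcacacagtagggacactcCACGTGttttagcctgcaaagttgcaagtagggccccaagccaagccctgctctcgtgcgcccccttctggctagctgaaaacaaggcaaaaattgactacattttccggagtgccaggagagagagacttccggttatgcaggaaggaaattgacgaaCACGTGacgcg
In UTP20 and UTP4 the letters began 10 and 16 bases before the start, and in UTP14A 241 bases before it. NOP10 held them at 170 and 11 bases before the start. A match of letters is a description of the sequence, and whether it bears on the level of these genes was not tested.

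Several of these genes also carry snoRNA genes within their own span, from whose introns snoRNAs are usually released. By the RefSeq gene table, 8 of the 43 genes (18.6%) held at least 1 snoRNA gene, against 1.36% of 18064 genes on the array with a span. Of these 8, 6 rose, namely TAF1D, NOP56, NOP58, NCL, WDR43 and TSR1, while DKC1 and PPAN did not pass. Of all 246 genes with a snoRNA gene in their span, 62 (25.2%) were called higher. Of the 35 without a snoRNA gene 23 rose, where 2972 of all 17818 genes without one were called higher.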

How the data were processed

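Total RNA of BCPAP cells (labelled from 200 ng) was hybridised to 3'-end arrays, and samples were grouped by title into shCSF2 and shCtrl. The authors deposited 1 log2 expression value per probe set and array. RMA, oligo and limma are listed in the submitters' processing notes, with no version or role. Of 49395 probe sets, 102 were controls, 44988 carried 1 symbol, 1832 several, and 2473 were not listed. The last 2 kinds named no gene.

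Genes were tested in limma 3.58.1 (R 4.3.3; lmFit, eBayes) without a block or filter, and p-values were adjusted by Benjamini-Hochberg over all 18132 genes (threshold 0.05). Fold changes are shCSF2 minus shCtrl with moderated SE. Members and lists were chosen with earlier results of these data known. Full values were given for the 8 called genes with the largest change per direction and the largest of each role. Names from other lists were the 3 largest called per direction, and MYC. SNU13 and array values of other genes were added after they were seen.

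Alternatives changed the probe set choice, dim filter, normalisation, variance model, array weights, replicate block and arrays used. Figures used matplotlib 3.10.9.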

Additional observations from a re-analysis of the deposited data

Results flagged for a closer look

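A few probe sets outside the comparison were higher on every shCSF2 array than on every shCtrl array. In log2 fold change, the probe set shared by UTP14A and its copy UTP14C was at 0.91, with 8.60, 8.65 and 8.55 in shCSF2 cells, against 7.71, 7.64 and 7.73 in shCtrl cells. The probe set shared by RRN3 and its pseudogenes RRN3P1 and RRN3P2 was at 0.42. The probe set shared by TAF1D, SNORA8 and SNORA25 was at 0.35, and that shared by TAF1D, SNORA8 and SNORA32 at 0.34. All 4 passed the limma test over all probe sets. The control probe set for the 5′ part of 28S rRNA was higher by 0.034, with 11.88 ± 0.0098 in shCSF2 and 11.84 ± 0.0089 in shCtrl cells (SD, n = 3 each, exact two-sided permutation p = 0.1, the smallest possible).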

How the results depend on the processing

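The counts of ribosome biogenesis genes called higher (29) ranged from 27 to 34 over 16 alternative settings, and from 27 to 28 when 1 array was left out. The count called lower (3) was 1 to 3 without 1 array, with 1 left without shCSF2 replicate 1, shCtrl replicate 2 or shCtrl replicate 3, and FBL was called in each of these fits. The median of 0.29 was 0.25 with all probe sets averaged, 0.35 with the most variable probe set, and 0.27 to 0.30 without 1 array. For the further genes, the count called higher (64) was 57 to 60 without 1 array, and the count called lower (5) was 2 to 5, at 3 without shCSF2 replicate 1 and at 2 without shCSF2 replicate 3 or shCtrl replicate 3. That count was 8 with a filter at a mean log2 value of 5, 12 with the filter at the median, 12 with a variance trend and robust estimation, and 3 with the replicate block. Between 36 and 41 of the 43 genes kept direction and side of the threshold without 1 array, and 58 to 65 of 100 probe sets passed. Same-numbered arrays deviated together with r of only 0.025 to 0.053, under the 0.1 set for pairing. With the replicate block 28 genes rose and 3 fell, and WDR3 lost its call (0.16, limma adjusted p = 0.055), while the other calls of the module were the same. The value of BYSL turned to -0.027 with all probe sets averaged, where its dim probe sets weigh as much as the bright one. NOP10, at 0.00, turned to -0.0010 with array weights, -0.0018 without shCSF2 replicate 1, -0.016 without shCSF2 replicate 2, -0.011 without shCtrl replicate 1 and -0.00036 without shCtrl replicate 3, within -0.016 to 0.018 over the fits without 1 array. The cause of the other changes was not tested. Over genes and settings, 636 values kept direction and side, 24 lost and 21 gained the call.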

Other observations

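Probe sets that the annotation assigns to a gene of the module and a snoRNA moved in both directions. Of 5 such probe sets of TAF1D, 2 rose, as given above, and 2 fell. The probe set shared with SNORA18 was at 7.65, 7.59 and 7.59 in shCSF2 cells, against 7.97, 7.996 and 7.99 in shCtrl cells (log2 fold change -0.37). The probe set shared with SNORA8 alone was at -0.13, and that shared with SNORA40 did not pass (-0.08). TAF1D by its own probe set rose by 0.27. The probe set shared by DKC1 and SNORA56 fell (-0.35) at mean log2 values of 4.36 in shCSF2 and 4.70 in shCtrl cells, while that shared by NCL and SNORA75 did not pass (0.26). The probe set of PPAN and its read-through gene PPAN-P2RY11 was at -0.00 and did not pass.

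The control probe sets for rRNA, the product of the pathway, differed by little. For 18S rRNA the middle part was at 12.01 ± 0.03 in shCSF2 and 12.07 ± 0.03 in shCtrl cells, and the 5′ part at 12.66 ± 0.01 in shCSF2 and 12.70 ± 0.01 in shCtrl cells (SD, n = 3 each, exact two-sided permutation p = 0.1 for each). The 3′ part did not differ beyond the spread (11.14 in shCSF2 and 11.15 in shCtrl cells, exact p = 0.9). The 28S middle part was lower by 0.018 in shCSF2 cells (exact p = 0.1), and its 3′ part by 0.095 (exact p = 0.2). The labelling kit primes RNA with a poly(A) tail, so these values do not measure the amount of rRNA in the cells.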
